A study of Mus musculus with 4 samples.

Results

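Molecular chaperones were examined in memory CD4 T cells of mice lacking 2 MAP kinase kinase kinases. The genes were chosen by symbol and comprised the Hsp and Dnaj families, the subunits of the cytosolic chaperonin, the BAG proteins and heat shock factors, of which Hsf2 had a probe and Hsf1 was not analysed here. The platform annotation held 161 probes for 86 such genes, among 45281 probes in all, and each gene was represented by its brightest probe. Of the 86 genes, 55 exceeded an intensity floor of 16 on at least 1 array and could be tested, and 46 did so on all 4 arrays. Some of the 86 were taken in by their symbol and are not chaperones. Among these are Hspg2, which encodes perlecan and lay below the floor, and Hspbap1, which is counted among the 55. The remaining 31 lay below the floor on every array, which bounds the signal of the probe and says nothing about whether the transcript was present.

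Chaperones bind unfolded or partly folded proteins. HSP70 proteins work in cycles driven by ATP, in which J proteins (the Dnaj genes) deliver the client and stimulate hydrolysis and nucleotide exchange factors, among them BAG proteins and HspBP1, release it. HSP90 acts later on kinases, receptors and other near-native clients, and the chaperonins enclose a folding chain in a barrel. Under heat and other proteotoxic stress, heat shock factor 1 trimerises, binds inverted repeats of the letters GAA (heat shock elements) and induces a subset of these genes, with Hspa1a and Hspa1b responding most steeply.

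Effector memory T cells, sorted from spleen and lymph nodes as CD4+CD62L-CD44+ cells, gave the total RNA that was hybridised to Illumina bead arrays. There were 2 dKO arrays, from C57BL/6 mice with MEKK2 knocked out and a MEKK3 allele pair of 1 floxed and 1 null copy deleted through Lck-Cre, and 2 arrays from C57BL/6 WT mice. The Lck promoter drives Cre in T lineage cells. Arrays carry the replicate number 1 or 2. Ages, treatments and the number of animals per array are not given in the sources used here, so the p-values below measure the spread between arrays, which may be technical. The study asked about helper T cell differentiation under TGF-beta, as its title says.

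Several facts of the arrays bear on every comparison. The dKO and WT arrays of 1 number shared 1 distribution of deposited values, since once sorted they differed by at most 0.0846 in number 1 and 0.0793 in number 2, and so had been normalized together. Between 28.2% and 29.2% of probes exceeded the floor on each array. Map3k3, which encodes MEKK3, had an intensity of 204 and 246 on dKO 1 and 2 and of 311 and 387 on WT 1 and 2. Neither Map3k2 probe reached the floor on any array, so the loss of MEKK2 could not be checked, and the Map3k3 probe was not placed within the gene. Xist exceeded the floor on both WT arrays alone and the Y-linked Eif2s3y on both dKO arrays alone, so sex and genotype cannot be told apart. Of T cell markers, Cd3d stood at 3221 to 5923. Cd4 was dimmer, at 84.4 to 151, and its other probe and the Cd5 probe lay below the floor on all arrays. Cd8a stayed below the floor throughout, and the brightest Cd8b1 probe stood at 512 to 736. Of 5 tested markers of CD8 T and NK cells, 4 were lower in dKO without overlap (80%, against 13.5% of all features), namely Ctsw by a log2 difference of −1.12, Klrd1 of −1.19, Klre1 of −1.74 and Nkg7 of −0.61. Klre1 is counted there although it passed the filter through the WT arrays alone. It lay below the floor on both dKO arrays (15.7 and 12.9), so its difference is taken against the floor. Their summed intensity was 1937 and 3190 on dKO 1 and 2 and 3680 and 4343 on WT 1 and 2, and the part of such cells in the dKO against WT values below was not tested.

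The array dKO 2 stood apart from the other 3 in the features that were higher on it. On it 130 of 10413 features (1.25%) exceeded the highest of the other arrays by at least 2-fold, against 25 on dKO 1, 33 on WT 1 and 28 on WT 2. The 130 include features that passed the filter through dKO 2 alone, such as Hspa1a and S100a9. Downward it did not stand apart at 2-fold, with 35 features that far below every other array, against 37 on dKO 1, 27 on WT 1 and 32 on WT 2. At 1.5-fold dKO 2 had the most such features, 243 (2.33%), against 143 on dKO 1, 213 on WT 1 and 113 on WT 2. Of 11 myeloid and dendritic markers 9 passed the filter, with summed intensities of 918 on dKO 2 and of 221 to 500 on the other arrays. The defining genes Itgam and Itgax lay below the floor on all 4. The 3 globin genes that passed summed to 4149 on dKO 2, 801 on dKO 1, 57.0 on WT 1 and 129 on WT 2.

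The inducible HSP70 genes gave the largest difference among the chaperones, and it came from that array alone. Hspa1a and Hspa1b encode the cytosolic HSP70 that cells make under stress. The Hspa1a probe had an intensity of 3.98 on dKO 1, 292 on dKO 2, 6.80 on WT 1 and 2.28 on WT 2. Hspa1b stood at 4.20, 40.5, 2.20 and 2.21 in the same order. Both genes were therefore above the floor on dKO 2 only. Their normalized log2 differences between dKO and WT were 2.00 and 0.61, with an adjusted p of 0.9997 in limma's test described below, and both were 0 without dKO 2. Within replicate number 2, normalized Hspa1a was at least 15.99-fold higher in dKO than in WT and Hspa1b at least 2.34-fold, each against the floor.

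Both genes, and all 5 of their probes that passed the filter, passed it through dKO 2 alone. The other Hspa1a probes stood at 35.2 and 37.3 on dKO 2 and at no more than 14.5 elsewhere. The other Hspa1b probe stood at 27.8 on dKO 2 and at no more than 6.45 elsewhere. The 2 genes are near-identical copies, and probe signal may be shared between them, so they count as 1 observation. Other genes high on dKO 2 included S100a8, a gene of neutrophils and monocytes chosen after its values were seen, with an intensity of 149 on dKO 2 and 6.37 to 16.7 elsewhere. The part of myeloid or red blood cells in the Hspa1a signal was not tested.

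**Figure D1:**
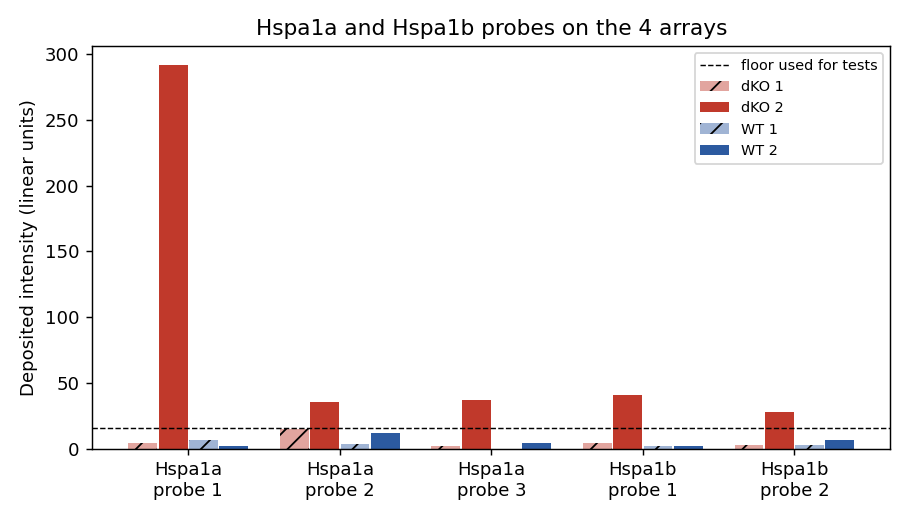
Deposited intensity (linear units) of the 5 Hspa1a and Hspa1b probes that passed the filter, with 1 bar per array and the floor of 16 as a dashed line (values below 0 are drawn at 0). Every probe exceeds the floor on dKO 2, up to 292, and on no other array.

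The upstream sequences of the pair are shown because these letters are what heat shock factor 1 reads. The 250 bases before each start, from RefSeq on GRCm38.p6, both on the minus strand, lie at chr17:34972157-34972406 (Hspa1a) and chr17:34959239-34959488 (Hspa1b). Hsph1, another gene induced by heat, is given for comparison, at chr5:149636337-149636586 on the minus strand. Capitals mark matches to GAANNTTC or TTCNNGAA, the pairs of inverted GAA units.
Hspa1a: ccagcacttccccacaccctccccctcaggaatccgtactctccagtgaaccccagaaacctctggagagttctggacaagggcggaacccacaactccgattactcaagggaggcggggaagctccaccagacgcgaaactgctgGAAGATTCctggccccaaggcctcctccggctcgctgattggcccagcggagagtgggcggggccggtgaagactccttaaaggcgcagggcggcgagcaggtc
Hspa1b: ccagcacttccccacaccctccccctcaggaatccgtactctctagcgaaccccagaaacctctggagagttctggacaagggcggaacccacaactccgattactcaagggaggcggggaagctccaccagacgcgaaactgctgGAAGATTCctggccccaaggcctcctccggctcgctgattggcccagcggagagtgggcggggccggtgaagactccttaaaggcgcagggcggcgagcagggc
Hsph1: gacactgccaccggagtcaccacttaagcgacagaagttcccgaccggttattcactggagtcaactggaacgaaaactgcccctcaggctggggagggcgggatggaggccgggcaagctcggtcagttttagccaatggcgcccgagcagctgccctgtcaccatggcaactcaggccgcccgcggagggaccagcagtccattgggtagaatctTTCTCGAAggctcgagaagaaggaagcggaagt
Hspa1a and Hspa1b were identical at 247 of 250 positions (98.8%), and both held 1 match, which began 104 bases before the start. The 250 bases before the first listed start of Dnajb1, which heat shock factor 1 also induces, held 0 matches.

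Either 2-unit motif, each its own reverse complement, occurred in 15.1% of 32851 promoter windows of 300 bases (250 before to 50 after the start). By gene, 20 of the 72 members with a window (27.8%) and 17% of 27025 genes held it. The 3-unit forms, GAANNTTC followed by NNGAA and TTCNNGAA followed by NNTTC, contain the shorter ones and are each other's reverse complement. Either form occurred in the windows of Dnajb6, Hspd1, Hspe1 and Hsph1. That was 4 of 72 members (5.56%), against 0.662% of all genes. The windows of Hspd1 and Hspe1 overlap, so the same match can count for both. A match describes the letters and does not show binding.

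Hsph1, Dnajb1, Hsp90aa1 and Bag3, which heat shock factor 1 also induces, were not 2-fold above every other array on dKO 2. Hsph1, the cytosolic HSP110, stood at 524 on dKO 1, 498 on dKO 2, 286 on WT 1 and 612 on WT 2. Its dKO minus WT difference was 0.90 in number 1 and −0.29 in number 2 on the normalized log2 scale. Dnajb1, the J protein partner of inducible HSP70, stood at 1057 and 1604 on dKO 1 and 2 and at 910 and 1418 on WT 1 and 2. The WT arrays were lower than both dKO arrays after normalization, by 0.21 on average (0.24 and 0.18 in numbers 1 and 2). Bag3, a co-chaperone of selective autophagy, stood at 159 and 296 in dKO and at 129 and 315 in WT, with the groups overlapping. Hsp90aa1, the inducible cytosolic HSP90, stood at 126 and 206 in dKO and at 106 and 178 in WT, also with overlap. Hsf2 exceeded the floor on WT 2 alone, at 19.97. Hsp90ab1 was not analysed here, and Dnaja1, another HSP70 partner, lay below the floor on all arrays.

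Comparing dKO with WT cells, no chaperone passed the test, and most differed little. Of 55 members, 0 passed in limma's test over all 10413 features (adjusted p = 0.9997 for every member), as did 0% of all features. In simulated data this test called 0 of 250 planted 2-fold changes, so a member that did not pass may still differ by that much. The changes were planted in brighter features only, so the rate does not cover the dimmer members. At an unadjusted p under 0.05 there were 4 members and 357 features. With the replicate number as a block 0 members passed, against 0.096% of all features called higher and 0.048% called lower in dKO. The groups did not overlap for 7 members higher in dKO (12.7%, against 12.7% of all features) and for 5 lower (9.09%, against 13.5%). Overlap is judged here and below on normalized values. The higher share equals that of all features and is no result about chaperones. The median log2 difference of the members was 0.11 (0.13 in number 1 and −0.01 in number 2), beside 0.01 over all features. The difference was smaller than 0.5 in size for 46 of the 55.

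**Figure D2:**
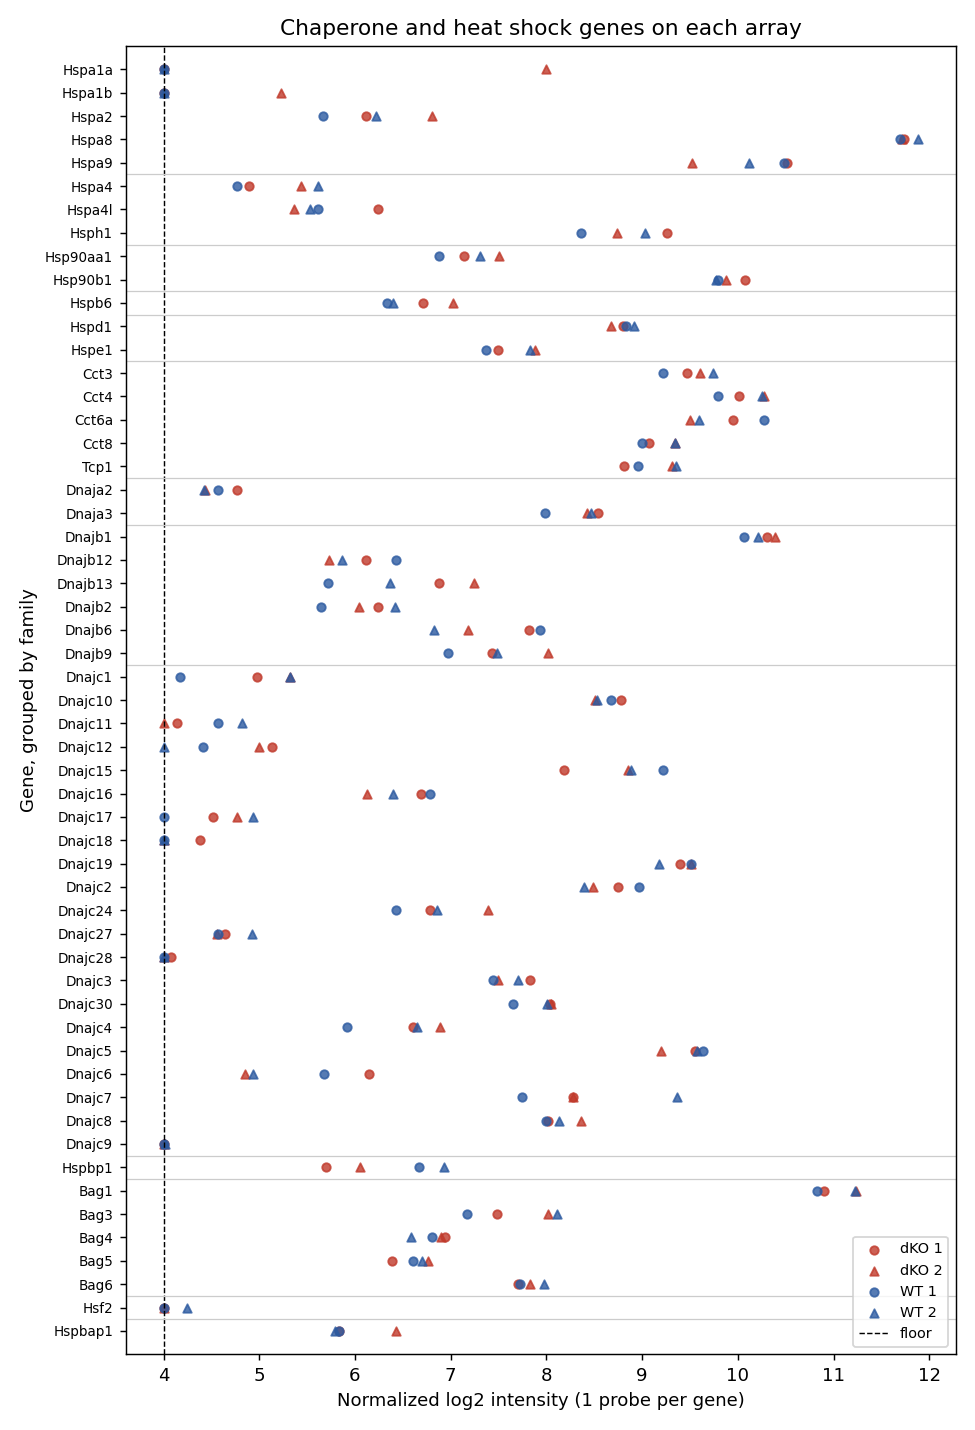
Normalized log2 intensity of the 55 chaperone genes that passed the filter, 1 row per gene grouped by family, with 1 point per array (red dKO, blue WT, circles number 1, triangles number 2) and the floor as a dashed line. Hspa1a at 8 and Hspa1b at 5.22 on dKO 2 stand off from 3 points at the floor, and the points of most other genes lie close together.

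The members higher in dKO without overlap and above the floor on all arrays were Dnajb13, Hspb6, Bag4, Dnajb1, Dnajc30 and Hsp90b1. Dnajb13, a J protein of sperm and cilia, stood at 106 and 170 on dKO 1 and 2 and at 48.0 and 91.5 on WT 1 and 2. Its means were 7.06 ± 0.26 in dKO and 6.04 ± 0.46 in WT (log2, SD, n = 2 each), a difference of 1.02 that was 1.16 in number 1 and 0.88 in number 2. That was the largest difference among the 46 members above the floor on all arrays. Hspb6, a small heat shock protein, stood at 94.4 and 146 in dKO and at 73.0 and 93.8 in WT, a difference of 0.50 after normalization. It was the only one above the floor of 8 genes grouped by symbol as small heat shock genes. Hspb1 lay below the floor on all arrays.

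Smaller differences without overlap were those of Bag4 (0.22), Dnajc30 (0.20, but 0.03 in number 2) and Hsp90b1 (0.19). Bag4, an inhibitor of death receptor signalling, stood at 110 and 133 in dKO and at 100.5 and 107 in WT. Dnajc30, a mitochondrial J protein, stood at 230 and 300.4 in dKO and at 178 and 294 in WT. Hsp90b1, the HSP90 of the endoplasmic reticulum, stood at 915 and 1106 in dKO and at 754 and 1029 in WT. For Dnajc30 and Hsp90b1, WT 2 exceeded dKO 1 before normalization. Dnajc12, a J protein that binds aromatic amino acid hydroxylases, stood at 32.5 and 34.3 in dKO and at 20.1 in WT 1, with WT 2 at the floor. Its difference was 0.86 (0.73 in number 1 and 0.99 in number 2), and being against an array at the floor it may understate the change.

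In the other direction, Hspbp1, which releases nucleotide from HSP70, stood at 47.5 and 73.3 on dKO 1 and 2 and at 91.2 and 136 on WT 1 and 2. Its means were 5.88 ± 0.25 in dKO and 6.80 ± 0.19 in WT (log2, SD, n = 2 each), a difference of −0.92 that was −0.97 in number 1 and −0.88 in number 2. The 2 numbers thus gave nearly the same value. Dnajc15, a J protein of the inner mitochondrial membrane that restrains respiratory complex I, stood at 254 and 540 in dKO and at 508 and 550.5 in WT. That was a difference of −1.03 in number 1 and −0.03 in number 2, so it rested on dKO 1. Without dKO 1 its difference was −0.19.

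Dnajc11, a J protein of the mitochondrial contact site complex, differed by −0.63 (−0.43 and −0.82 in numbers 1 and 2), with dKO 2 at the floor. Dnajc5, the cysteine string protein of secretory vesicles, stood at 642 and 687 in dKO and at 681 and 894 in WT, a difference of −0.23. Hspd1, the mitochondrial chaperonin, stood at 383 and 474 in dKO and at 393 and 563 in WT, a difference of −0.14 after normalization. Of the 9 mitochondrial members tested, 3 were lower without overlap (33.3%, against 13.5% of all features) and 1 higher (11.1%, against 12.7%), with a median difference of 0.04. Of the 8 members of the endoplasmic reticulum, 0 were lower and 1 higher (12.5%, against 12.7%), with a median of 0.14. The shares higher lie near those of all features. Hspa5, the HSP70 of that compartment, lay below the floor on all arrays.

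Within the 2 replicate numbers the sign of the genotype difference often disagreed. It was higher in dKO in both numbers for 17 members (30.9%, against 27.6% of all features), lower in both for 10 (18.2%, against 26.6%) and of opposite sign for 22 (40%, against 34.5%). Among the 17 were genes whose groups overlapped across numbers. In numbers 1 and 2 these differed by 0.45 and 0.53 (Dnajb9), 0.44 and 0.59 (Hspa2), 0.35 and 0.53 (Dnajc24) and 0.69 and 0.23 (Dnajc4). A weaker Hspa2 probe was lower in dKO in both numbers, by −0.12 and −0.15. Dnajc7, a J protein that bridges HSP70 and HSP90, stood at 271 and 355 on dKO 1 and 2 and at 189 and 770 on WT 1 and 2. WT 2 was the highest, and the difference was 0.53 in number 1 and −1.09 in number 2. Dnajb2, Hsph1 and Hspa4l likewise differed by 0.59, 0.90 and 0.63 in number 1 and by −0.38, −0.29 and −0.18 in number 2. Hspa9, the mitochondrial HSP70, stood at 1229 on dKO 1, 859 on dKO 2, 1204 on WT 1 and 1312 on WT 2. In these intensities only dKO 2 was low, and the other Hspa9 probe was also lowest there, at 233 against 351 to 519. After normalization dKO 2 differed by −0.59 from WT 2. WT 2, at 10.11, then also lay below dKO 1 (10.51) and WT 1 (10.49). Probes of 1 gene disagreed as well. Of 18 members with over 1 probe that passed the filter, 8 had probes of opposite sign in dKO minus WT, among them Hspa8 and Tcp1.

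**Figure D3:**
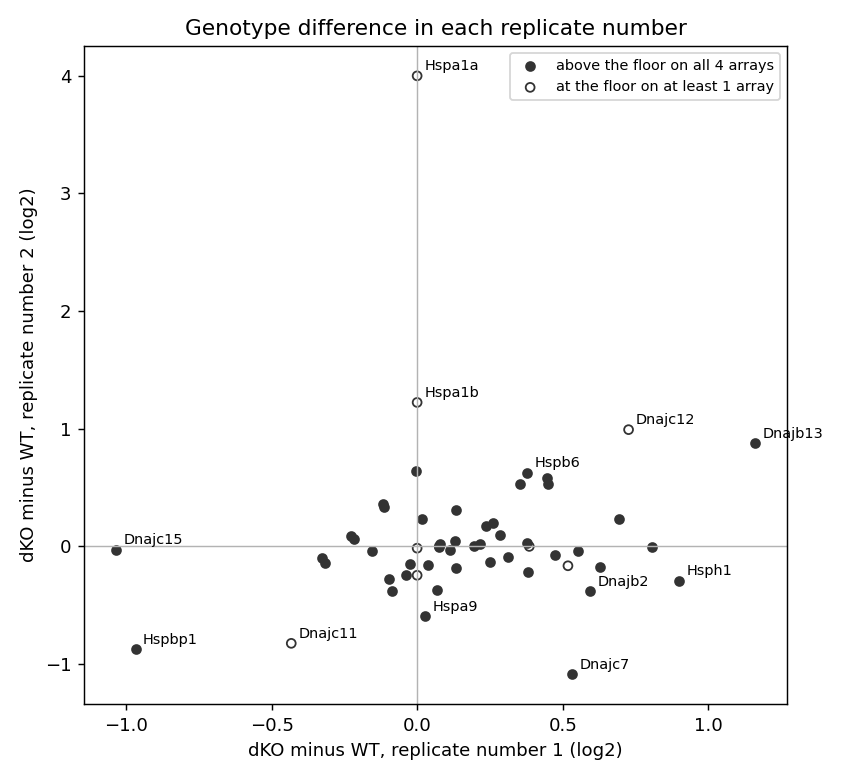
Difference dKO minus WT (normalized log2) of each of the 55 members in replicate number 1 (horizontal) and number 2 (vertical), with open circles for genes at the floor on at least 1 array. Most points lie near 0 on both axes, Dnajb13 and Hspbp1 lie far out on the same side in both numbers, and Hspa1a lies at 0 in number 1 and 4 in number 2.

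Replicate number 2 was also set against number 1, since the labels' number is the only other grouping of the arrays. The arrays of a number had been normalized together by the authors, so the comparison rests on the quantile normalization applied here over all 4. No member passed (limma, 0 of 55, smallest adjusted p = 0.154, for Dnajb6), as did 0% of all features. At an unadjusted p under 0.05 there were 12 members and 2172 features. The numbers did not overlap for 18 members higher in number 2 (32.7%, against 25.7% of all features) and for 10 lower (18.2%, against 26.4%). The median difference of the members was 0.18 (0.01 between the dKO arrays and 0.18 between the WT arrays), beside 0.00 over all features.

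The cytosolic chaperonin TRiC, a double ring that folds actin and tubulin, had 4 of its 5 tested members higher in number 2 without overlap (80%, against 25.7% of all features) and 1 lower (20%, against 26.4%). Tcp1, a subunit, stood at 386 and 427 on dKO 1 and WT 1 and at 745 and 767 on dKO 2 and WT 2. After normalization the difference was 0.45, with 0.36 for Cct4, 0.32 for Cct3 and 0.30 for Cct8. Cct6a, another subunit, went the other way, at 836.5 and 1036 on dKO 1 and WT 1 and at 848.5 and 906 on dKO 2 and WT 2, a difference of −0.56. Both Cct6a probes had that sign, whereas the other probes of Cct3 and Tcp1 had the opposite sign to the ones used. Probes of Cct2, Cct5 and Cct7, further subunits of the ring, lay below the floor on all arrays.

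Of 5 BAG genes 4 were higher in number 2 without overlap (80%, against 25.7% of all features). Bag3 differed by 0.73 (0.53 between the dKO arrays and 0.93 between the WT arrays) and Bag1, which also binds BCL2, by 0.36. Bag1 stood at 1579 and 1508 on dKO 1 and WT 1 and at 2925 and 2888 on dKO 2 and WT 2. Hspa4, a cytosolic HSP110, stood at 27.7 and 25.4 on the arrays of number 1 and at 46.9 and 53.4 on those of number 2, a difference of 0.69. Hspa2, best known from spermatogenesis, stood at 62.6 and 46.5 in number 1 and at 124 and 82.5 in number 2, a difference of 0.62.

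Among J proteins higher in number 2, Dnajc1 and Dnajb9 belong to the endoplasmic reticulum. Dnajc1 stood at 29.3 and 17.1 on dKO 1 and WT 1 and at 43.3 and 43.4 on dKO 2 and WT 2, a difference of 0.74. Dnajb9, which the unfolded protein response induces, stood at 153 and 113 in number 1 and at 295 and 203 in number 2, a difference of 0.55. Both arrays of number 2 were the highest for each gene. Dnajc24, which takes part in making diphthamide, stood at 99.0 and 77.7 in number 1 and at 188 and 129 in number 2, a difference of 0.52. Dnajc4 stood at 87.7 and 54.9 in number 1 and at 132 and 112 in number 2, a difference of 0.51. Hspd1 and Hspe1, the mitochondrial chaperonin and its lid, are transcribed from neighbouring starts whose windows overlap, and differed by −0.02 and 0.43. Hspe1 stood at 160 and 146 on dKO 1 and WT 1 and at 267 and 259 on dKO 2 and WT 2. A weaker Hspd1 probe differed by −1.81, so the 2 probes of that gene disagreed in size.

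The members lower in number 2 were led by Dnajc6, auxilin, which uncoats clathrin vesicles. It stood at 64.1 and 46.7 on dKO 1 and WT 1 and at 31.1 and 32.8 on dKO 2 and WT 2, a difference of −1.02. Dnajb6, which suppresses aggregation of polyglutamine proteins, stood at 199 and 215 in number 1 and at 163 and 126 in number 2, a difference of −0.87, and its 3 probes above the floor did not share a sign. Hspa9 differed by −0.69 (−0.996 between the dKO arrays and −0.37 between the WT arrays). Hspa4l, an HSP110 of the cytosol, stood at 68.5 and 44.9 in number 1 and at 44.6 and 50.5 in number 2, a difference of −0.48. Dnajc16 stood at 92.7 and 99.1 in number 1 and at 77.0 and 93.6 in number 2, also −0.48. Dnajb12, of the endoplasmic reticulum, stood at 62.7 and 77.6 in number 1 and at 58.0 and 64.2 in number 2, a difference of −0.47. Dnajc2, a J protein of ribosomes, stood at 369 and 429 in number 1 and at 414 and 388 in number 2, a difference of −0.42, while its other probe above the floor differed by 0.33. In the deposited intensities the 2 numbers overlapped for all 4 of these genes. Hspa8, the constitutive HSP70, stood at 2808 and 2750 on dKO 1 and WT 1 and at 4088 and 4565 on dKO 2 and WT 2, which was a difference of 0.08 after normalization. Another Hspa8 probe stood at 892 on dKO 2 and at 1710 to 1771 on the other arrays.

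**Figure D4:**
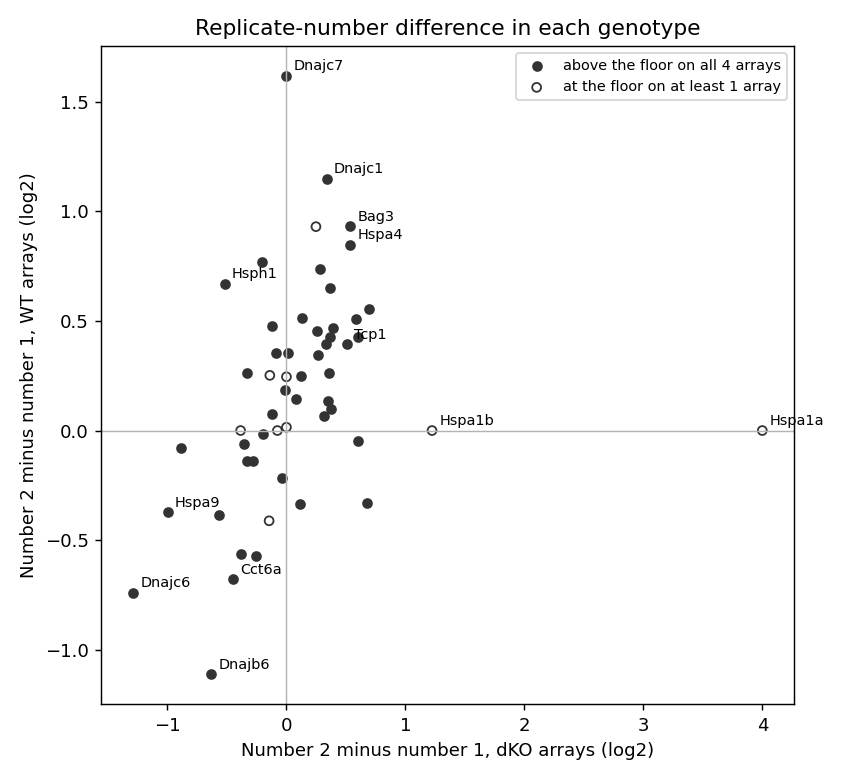
Difference number 2 minus number 1 (normalized log2) of each of the 55 members between the dKO arrays (horizontal) and between the WT arrays (vertical), with open circles for genes at the floor on at least 1 array. Bag3, Hspa4 and Tcp1 are higher and Dnajc6, Dnajb6 and Hspa9 lower in number 2 in both genotypes, and Hspa1a differs between the dKO arrays only.

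The direction of these differences depended on the scaling. On the authors' values without further normalization, probes above the floor on all arrays were higher in number 2 by a median of 0.31 on the log2 scale. With those values 33 members were higher and 2 lower in number 2 without overlap. The shares of all features on those values are not given here, so these counts are no result about chaperones. Of the 19 members lower in number 2 after quantile normalization, 8 were then higher, Dnajc2 among them at 0.01, while 0 of the 36 higher ones became lower. With array medians made equal, 4 of the 19 and 1 of the 36 changed sign. Dnajc6, Dnajb6, Hspa9 and Cct6a stayed lower on the authors' values, at −0.78, −0.53, −0.20 and −0.09. Only Dnajc6 and Dnajb6 did so without overlap. Hspa9 was higher on WT 2 than on WT 1 there, and Cct6a higher on dKO 2 than on dKO 1.

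The rest of the proteostasis network was read from lists chosen with earlier results of these data known, and 0 of their members passed in limma in either comparison. Of 19 co-chaperones of HSP90 and HSP70, 3 were higher (15.8%) and 2 lower (10.5%) in dKO without overlap (median 0.01), near the 12.7% and 13.5% of all features, with Ptges3, the HSP90 co-chaperone p23, at a difference of 0.41. Of 20 genes of folding and stress signalling in the endoplasmic reticulum, 1 was higher (5%) and 5 lower (25%), with a median of −0.03. Ddit3, a transcription factor of that response, stood at 120 and 116 in dKO and at 184 and 206 in WT, a difference of −0.72. The sensor Ern1 differed by 0.66 in the other direction. Of 11 genes of mitochondrial proteostasis, 2 were higher (18.2%) and 3 lower (27.3%), with a median of −0.07 and the protease Lonp1 at −0.67. Of 8 prefoldin and tubulin folding genes, 1 was higher (12.5%) and 0 lower (median 0.02). In number 2 against 1 this list had 1 gene higher (12.5%, against 25.7% of all features) and 5 lower (62.5%, against 26.4%), with a median of −0.23.

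Between the replicate numbers, the 8 other targets and regulators of heat shock factor 1 had 2 members higher (25%, against 25.7% of all features) and 3 lower (37.5%, against 26.4%) in number 2 without overlap, with a median of −0.07. In dKO against WT 0 were higher and 1 lower (12.5%, against 13.5% of all features), with a median of −0.09. Atf3, a stress-induced transcription factor, stood at 10.04 and 7.42 on dKO 1 and WT 1 and at 241 and 120 on dKO 2 and WT 2. Atf3 exceeded the floor on both arrays of number 2 alone, whereas Hspa1a did so on dKO 2 alone. Having passed the filter through number 2 only, Atf3 could not come out otherwise than higher there. Of the 8 genes, 4 were above the floor on all 4 arrays.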

How the data were processed

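The authors deposited probe intensities in linear units from which background had been subtracted, as values below 0 show. The submitters' software and settings are not stated in the labels. Sample titles gave the groups and replicate numbers. A second, non-normalized table was left out: none of its 8 column names matches a label. Values below 16 were set to 16, and log2 intensities were then quantile normalized across the 4 arrays. Probes above the floor on at least 1 array were kept, 14673 of 45281, and each gene was represented by its brightest probe, which left 8285 genes and 2128 unnamed probes. By GEO's platform annotation, 34885 probes had 1 symbol, 18 had several and 10378 had no symbol. All 86 members matched the RefSeq table of GRCm38.p6 by Entrez ID, with 0 symbols changed.

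Each difference was fitted in limma, version 3.58.1 under R 4.3.3 (lmFit, eBayes with a mean-variance trend, 2 residual degrees of freedom), two-sided, with Benjamini-Hochberg adjustment over 10413 features and a threshold of 0.05. The members and lists were chosen with earlier results of these data known. Named in full were, in each comparison and direction, up to 8 members above the floor on all arrays with the largest difference and no overlap, together with a set of main chaperones. Of list genes, up to 4 per list were named by unadjusted p. The fits were tested on simulated data with changes planted in brighter features only. The simulated spread was pooled over features of like intensity. For dKO against WT the main fit called 0 of 250 changes of 2-fold and 24.4% of those of 4-fold. With the replicate number as a block it called 20.4% and 85.2%. For number 2 against 1 the main fit called 14.8% and 79.2%. Settings varied were the floor, filter, scaling, probe choice, model and arrays left out. Only 4 arrays limit the precision.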

Additional observations from a re-analysis of the deposited data

How the results depend on the processing

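No member of the chaperone set was called in dKO against WT under any setting except no filter, where Hspa1a was called and the fit is unreliable because most residual variances were 0. With no filter limma called 96 features and 1 member in dKO against WT and 989 features and 5 members in number 2 against 1, and both medians of the members were 0.00. Over all features, dKO against WT gave 15 calls with the replicate number as a block (0 of 55 members, smallest member adjusted p = 0.262 by limma), 4 with log2(intensity + 16) and 1 with robust eBayes. Deviations of same-numbered arrays correlated at 0.472, but the labels name no pairing and there were 2 numbers. On the authors' values the member median for number 2 against 1 was 0.55, with 33 higher and 2 lower without overlap. On those values the median over probes above the floor on all arrays was 0.31. Shares of all features without overlap are not given for the alternative settings, so such counts are no result about chaperones. A setting chosen after seeing the data, the authors' values with the block or the genotype term, gave 31 calls for genotype and 2429 for number, of which 0 and 19 were members, with the same 33, 2 and 0.55. With 1 array left out, calls stayed at 0 to 0 over all features and members in both comparisons. Members without overlap then numbered 12 to 28 higher and 8 to 19 lower in dKO, and 20 to 28 higher and 13 to 18 lower in number 2, since 3 arrays overlap less often than 4. The member medians ran from 0.02 to 0.19 and from 0.06 to 0.17. Without dKO 2 the Hspa1a and Hspa1b differences were 0, and 17 members were higher and 8 lower in dKO without overlap. Of 865 single-gene values per comparison under alternatives, 53 and 48 had another sign without a call, and the cause was not tested.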

Other observations

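Immediate early genes, which cells switch on within minutes of stimulation or isolation, were mostly higher in replicate number 2 in both genotypes. Of 10 tested, 6 were higher (60%, against 25.7% of all features) and 0 lower (against 26.4%) in number 2 without overlap, with a median log2 difference of 0.61, and 0 passed in limma (5 at an unadjusted p under 0.05). Fosb stood at 80.6 and 53.1 on dKO 1 and WT 1 and at 598 and 348 on dKO 2 and WT 2. Dusp1, a phosphatase that switches off MAP kinases, stood at 1704 and 1863 on the arrays of number 1 and at 5780 and 4600 on those of number 2. In dKO against WT the list had 2 members higher and 2 lower without overlap (20% each, against 12.7% and 13.5% of all features), with a median of −0.05, and Fos, a subunit of the AP-1 factor, differed by 0.82.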
